A study of Mus musculus with 2 samples.

Results

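Open chromatin sites in which no footprint was called were examined in whole ovary of aged female mice. A site was counted when a peak of the shorter, stricter peak list of one DNase-seq library overlapped a peak of the same list of the other library by at least 1 bp on an autosome, and when the merged region touched no deposited footprint in either library. The members were thus chosen by the measured peaks and footprints themselves. They numbered 1253 of 40287 shared autosomal regions, which is 3.11% of the shared regions and the background for the counts that follow. The merged lists held 66985 autosomal regions in all. The 39034 shared regions with a footprint in at least 1 library are called footprinted regions here.

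The tissue came from B6CASTF1/J females, the first-generation cross of C57BL/6J and CAST/EiJ, aged 18 to 20 months. No treatment, transgene or comparison group is named in the labels, so the 2 libraries (biological replicates 1 and 2) form 1 group and no contrast between conditions exists. The labels list separate biosamples under 1 donor entry, and whether the libraries came from the same animal is not given. Nothing says how the replicates were prepared apart, so their spread may be technical. In whole tissue, fewer cells with an open site and less opening per cell cannot be told apart. Promoter regions found in both libraries covered 12198 of 20807 autosomal protein-coding genes (58.6%). Among marker genes they covered 11 of 12 for theca and steroidogenic cells, 8 of 12 for granulosa cells, a share near that of all genes, 4 of 13 for oocytes and 3 of 9 for surface epithelium. Of nerve, immune and liver markers, they covered 2 of 4 neuron, 3 of 9 T cell, 2 of 6 B cell, 0 of 10 macrophage and 0 of 6 hepatocyte genes.

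DNase I cuts DNA where nucleosomes are displaced, which gives a peak of cuts at promoters and enhancers. A protein bound to a short stretch of DNA shields it, and the resulting dip within the peak is called a footprint. Factors that stay on DNA for long, such as the insulator protein CTCF, leave deep footprints, while short-lived binding can leave shallow ones or none. Many mammalian promoters lie in CpG islands, stretches rich in G, C and the dinucleotide CpG, in which transcription starts in a nucleosome-poor stretch and the first nucleosome of the gene body lies just downstream.

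The reference sequences of a few strong regions are given here as examples of members at different positions, with their CpGs marked. They are plus-strand sequences of assembly GRCm38.p6 from RefSeq. Each is the stretch of the region outside annotated untranslated sequence, up to 240 bases long. In the first 4, capitals mark CpG dinucleotides.
Ttc39b member, downstream of the start, chr4:83323541-83323780: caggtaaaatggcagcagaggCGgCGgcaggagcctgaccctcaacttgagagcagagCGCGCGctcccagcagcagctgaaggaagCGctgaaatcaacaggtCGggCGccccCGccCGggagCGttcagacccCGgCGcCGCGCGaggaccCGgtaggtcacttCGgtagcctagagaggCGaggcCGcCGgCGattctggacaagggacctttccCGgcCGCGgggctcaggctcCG
Egr2 member, at the start, chr10:67537661-67537868: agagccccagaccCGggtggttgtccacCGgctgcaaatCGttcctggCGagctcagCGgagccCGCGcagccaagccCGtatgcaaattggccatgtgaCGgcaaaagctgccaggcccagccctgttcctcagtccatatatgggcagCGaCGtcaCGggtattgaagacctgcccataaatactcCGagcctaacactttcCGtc
Distal member, nearest start Zfp292, chr4:34886901-34887120: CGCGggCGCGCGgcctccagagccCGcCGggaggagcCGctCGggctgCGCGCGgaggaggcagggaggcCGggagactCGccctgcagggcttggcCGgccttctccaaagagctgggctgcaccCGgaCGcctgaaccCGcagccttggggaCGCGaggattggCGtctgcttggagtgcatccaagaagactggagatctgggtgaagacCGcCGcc
Distal member, nearest start Wdr5, chr2:27539801-27540000: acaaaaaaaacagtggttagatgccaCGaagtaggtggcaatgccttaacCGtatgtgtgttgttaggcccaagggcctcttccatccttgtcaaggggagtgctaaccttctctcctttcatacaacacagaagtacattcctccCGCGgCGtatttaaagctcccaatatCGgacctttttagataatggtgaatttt
In the next 2, capitals mark bases inside a footprint of either library. The first is the footprinted region that holds the start of Ttc39b and lies next to the member above. The second, upstream of Cand1, ranked first by mean rank of signal over both libraries among regions with exactly 1 footprint in 1 library, just outside the rule.
Ttc39b start region, chr4:83324256-83324420: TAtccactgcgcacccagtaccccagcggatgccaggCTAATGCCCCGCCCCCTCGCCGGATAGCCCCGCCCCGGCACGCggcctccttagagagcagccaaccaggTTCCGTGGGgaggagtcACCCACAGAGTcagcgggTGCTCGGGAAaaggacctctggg
Cand1 upstream region, chr10:119240411-119240650: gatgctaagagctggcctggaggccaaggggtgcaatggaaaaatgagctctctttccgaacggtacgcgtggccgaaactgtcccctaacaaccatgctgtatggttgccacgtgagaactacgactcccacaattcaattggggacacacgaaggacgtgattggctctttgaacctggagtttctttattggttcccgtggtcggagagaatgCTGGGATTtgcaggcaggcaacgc
The Ttc39b member held 26 CpGs in 240 bases, the Egr2 member 14 in 208, the Zfp292-side member 23 in 220 and the Wdr5-side member 6 in 200. Both distal examples were rich in CpG for their position. Their ratio of CpGs to the number expected from C and G content was 0.821 and 0.608, and only 18.0% of distal members exceeded 0.6. In the Ttc39b start region 75 of the 165 printed bases lay inside footprints, against 8 of 240 in the Cand1 region. The GC box GGGCGG, the binding sequence of the SP and KLF family, was counted on either strand of the printed bases. It occurred 1 time in the 240 bases of the Ttc39b member and 2 times in the 165 printed bases of its footprinted neighbour.

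Members were weaker sites than footprinted regions. The region's signal was the authors' depth-scaled peak strength, taken as the highest among its peaks in each library. In replicate 1 the median signal of members was 0.850, ranging between 0.194 and 3.63, and the median of footprinted regions was 1.77. In replicate 2 it was 0.852 in members, between 0.258 and 3.25, and 1.55 in footprinted regions. The median of the 2-library mean in members was 0.511 times that in footprinted regions. The distributions overlapped, since the upper quartile of members, 1.15 and 1.13 in replicates 1 and 2, lay above the lower quartile of footprinted regions, 1.07 and 0.961. This ordering follows in part from the rule, since a footprint is called from cuts, so it is given as a description.

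**Figure D1:**
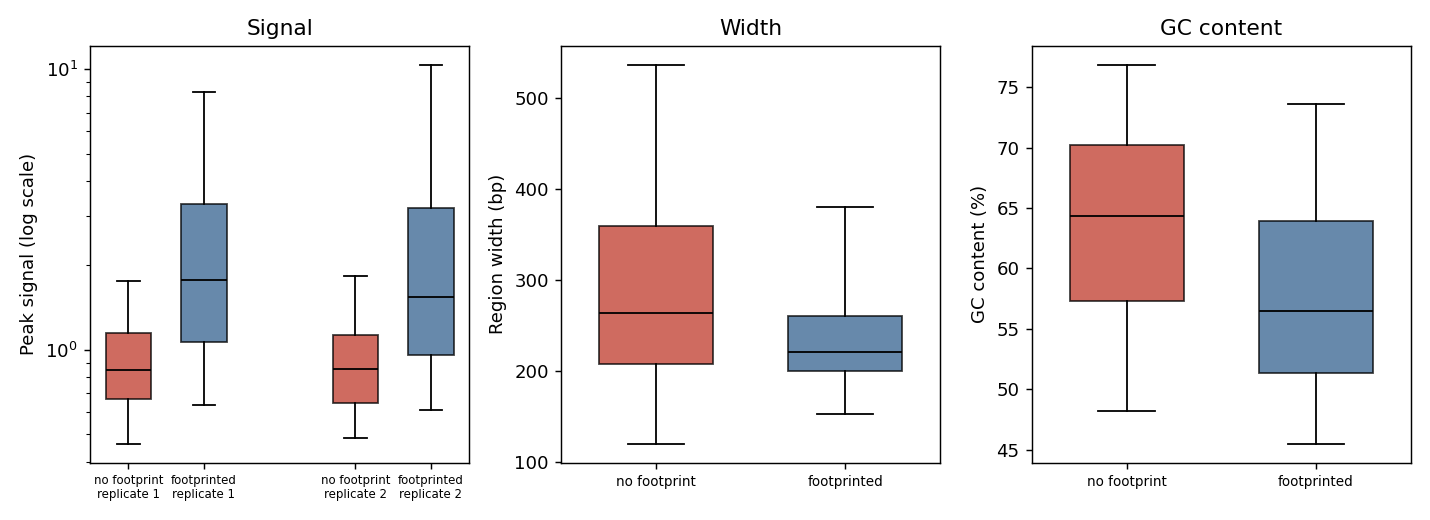
Peak signal per library (left, log scale), region width (middle, bp) and GC content (right, percent) of 1253 regions without a footprint and 39034 footprinted regions. Boxes span the quartiles with the median as a line, and whiskers reach the 5th and 95th percentiles; regions without a footprint had the lower median signal (0.850 against 1.77 in replicate 1), the larger median width and the higher median GC content.

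When shared regions were ranked by mean rank of signal and cut into 10 equal deciles, the share without a footprint fell steadily with strength. It was 11.4% in the weakest decile (459 of 4029 regions), 6.90% in the next, 3.35% in decile 4 and 0.348% in decile 8, and no region of the top 2 deciles was without a footprint. Of the weakest decile, 3570 regions carried footprints, with a median of 3 over both libraries.

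Position relative to gene starts also differed. A transcription start is where RNA polymerase II begins a gene, and promoters were taken as the 500 bp either side of any annotated start of a protein-coding gene. Among members, 898 (71.7%) lay at promoters, against 14729 (37.7%) of footprinted regions. Exons took in 3.67% of members and 4.61% of footprinted regions, introns 10.2% and 25.3%, and intergenic sequence 14.4% and 32.4%. In footprinted regions the promoter share climbed with signal, being 15.0% in the weakest decile and 90.4% in the strongest. In members it was 62.5% in the weakest decile and lay between 70.8% and 85.7% in deciles 2 to 8. The promoter shares of members and footprinted regions were 37.8% and 29.2% with the longer lists, 45.5% and 34.4% with replicate 2 alone and 36.2% and 30.1% with replicate 1 alone.

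Most members were not centred on the start itself. By the centre of the region and the nearest start, 625 members (49.9%) lay more than 200 bp downstream and no more than 2000 bp from a start, against 2992 footprinted regions (7.67%). A further 291 members (23.2%) were centred within 200 bp of the start, against 12052 footprinted regions (30.9%). Upstream by more than 200 bp lay 126 members (10.1%) and 2628 footprinted regions (6.73%), and 211 members (16.8%) and 21362 footprinted regions (54.7%) were distal, with their edge over 2000 bp from any start. Within 1000 bp of a start, the median offset of the centre was 276 bp downstream in 1001 members and 30 bp upstream in 15868 footprinted regions.

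A window centred 200 to 600 bp downstream, chosen after the data were seen, held 494 members (39.4%) and 1370 footprinted regions (3.51%). The mirror window 200 to 600 bp upstream held 80 members (6.38%) and 1197 footprinted regions (3.07%). The fullest 100 bp bin for members ran between 300 and 400 bp downstream, with 158 regions, and that for footprinted regions was the last 100 bp before the start, with 7499. With the starts of the basic annotation set, the shares in the downstream window were 43.0% of members and 3.69% of footprinted regions, and with only the outermost start of each gene they were 38.0% and 4.38%. With the longer lists they were 18.7% and 3.69%, with replicate 2 alone 22.5% and 3.29%, and with replicate 1 alone 16.9% and 2.98%.

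**Figure D2:**
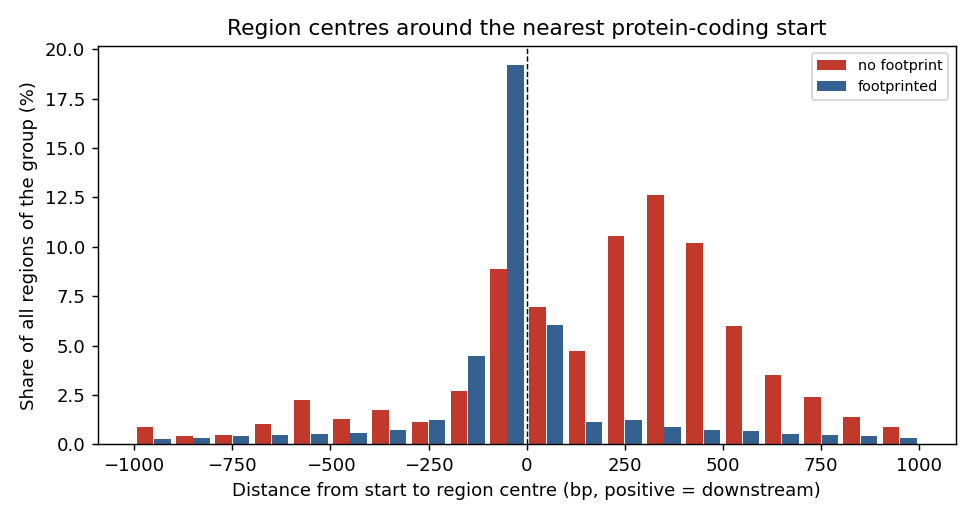
Share of all 1253 regions without a footprint and of all 39034 footprinted regions (vertical axis, percent) whose centre falls in each 100 bp bin around the nearest protein-coding start (horizontal axis, bp, positive downstream). Regions without a footprint peak 300 to 400 bp downstream of the start, where 12.6% of them lie, and footprinted regions peak in the 100 bp just upstream, with 19.2%.

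At like signal, the share without a footprint depended on position. In the weakest decile, 167 of 304 regions centred 200 to 600 bp downstream of a start had no footprint, which is 54.9% (exact binomial 95% interval 49.2 to 60.6%). The value was 30.8% at the same distance upstream (24 of 78 regions, interval 20.8 to 42.2%), 18.2% for centres between 200 bp upstream and 100 bp downstream of the start (65 of 357, 14.3 to 22.6%) and 4.08% at distal regions (120 of 2939, 3.40 to 4.86%). Over the 4 weakest deciles the shares were 44.9% downstream (438 of 975), 18.0% upstream, 10.6% at the start and 1.66% at distal regions. The intervals cover counting error of regions only, and neighbouring regions of 1 promoter are not independent.

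**Figure D3:**
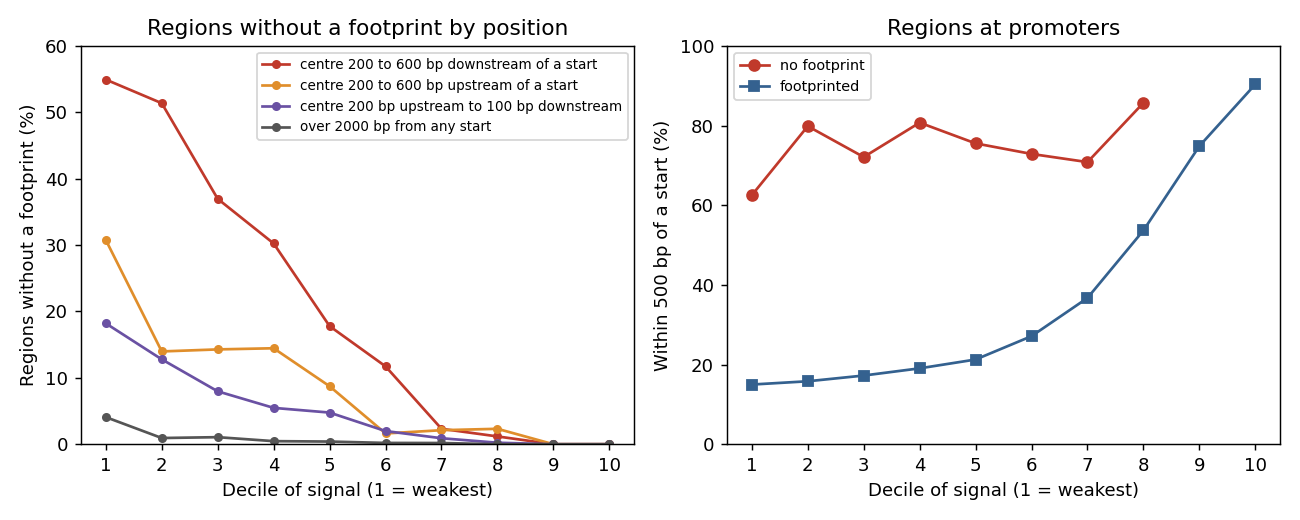
Left, share of shared regions without a footprint (percent) in each decile of signal, for 4 positions relative to protein-coding starts. Right, share of regions within 500 bp of a start (percent) in each decile, for regions without a footprint and footprinted regions; the downstream window lay above the other positions in the 7 weakest deciles, at 54.9% in the weakest, and regions without a footprint were mostly at promoters in every decile that held any.

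By gene structure, the centre base of downstream members fell in an intron in 435 of 625 cases (69.6%), in coding sequence in 105 (16.8%), in untranslated exon sequence in 51 (8.16%) and in another exon in 33 (5.28%). Downstream footprinted regions gave 69.5%, 11.8%, 11.3% and 6.05% for the same classes. At least 50% of the bases were soft-masked as repeats in 10 members (0.798%) and 446 footprinted regions (1.14%). Members were spread over all 19 autosomes, between 2.13% of shared regions on chromosome 7 and 4.03% on chromosome 3.

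Most members had another region close by. Another shared region lay within 500 bp of 1068 members (85.2%), against 7929 footprinted regions (20.3%). The share was higher in members at each position, although most distal members had no such neighbour. Downstream of starts the shares were 92.3% of members and 42.3% of footprinted regions, at starts 94.2% and 30.6%, upstream 94.4% and 38.6%, and at distal positions 46.4% and 9.15%. The centre of that neighbour was a median of 480 bp from the member's centre (quartiles 390 and 590 bp). With the longer lists, 46.3% of members and 23.2% of footprinted regions had such a neighbour; the shares were 59.0% and 22.9% with replicate 2 alone and 47.4% and 20.7% with replicate 1 alone.

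The neighbour was the stronger site in 1022 of the 1068 pairs (95.7%), with a median of 4.75 times the member's signal (quartiles 2.67 and 8.57). For footprinted regions with such a neighbour, the neighbour was stronger in 44.3% and the median ratio was 0.884. The groups were not matched by signal. Footprinted regions with a neighbour had own medians of 2.43 and 2.42 in replicates 1 and 2, against 0.883 in both for members. Since members are weak in part through the rule, this contrast is given as a description. The median neighbour of a member had a signal of 4.48 in replicate 1 and 4.91 in replicate 2, with 5 footprints in each. It was itself footprinted in 1000 of the 1068 pairs (93.6%) and held an annotated start in 710 (66.5%). The nearest footprint lay a median of 206 bp beyond the edge of a member, and 1118 members (89.2%) had one within 500 bp. Beside these members, 740 footprinted regions that hold a start had medians of 5.29 and 6.05 in replicates 1 and 2, and 68.5% of them were in the top 2 deciles. The 10364 footprinted start regions with no member within 500 bp had medians of 3.75 and 3.74, and 49.7% were in those deciles.

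The deposited false discovery rate (FDR) of the cut rate, given per stretch of bases and listed where below 0.05, showed the same shape base by base. Each peak of the shorter lists contains a base with an FDR under 0.001, so the centre of a region was high by choice and only its surroundings are informative. In the 4 weakest deciles, 1062 members were set beside 15053 footprinted regions, each turned to the direction of the nearest gene. At 400 bp upstream of the centre, 71.1% of members in replicate 1 and 70.5% in replicate 2 had an FDR under 0.001, against 6.60% and 5.90% of footprinted regions. At 400 bp downstream the shares were 24.0% and 22.7% of members and 4.94% and 4.07% of footprinted regions. In both libraries, highly cut DNA was thus found more often upstream of members than downstream of them, in the direction of the gene. The groups were not matched by position. Of all 16115 regions of these deciles, 11530 were distal, and only 191 of the 1062 members were among them. How far position accounts for the gap between the groups was not tested.

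**Figure D4:**
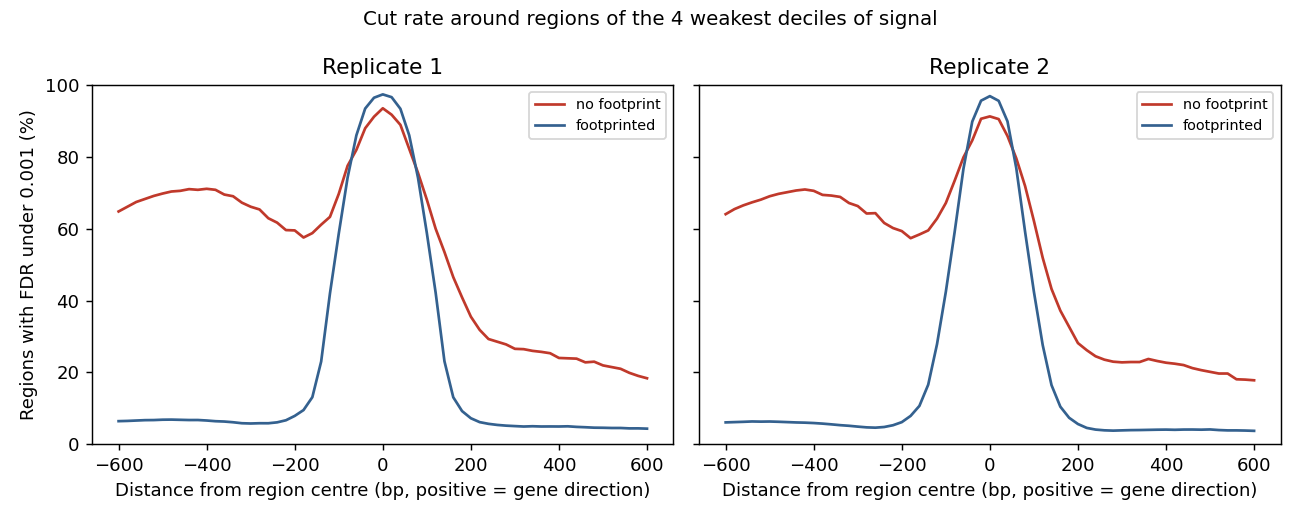
Share of regions (vertical axis, percent) with an FDR of the cut rate under 0.001 at each distance from the region's centre (horizontal axis, bp, positive in the direction of the nearest gene), for 1062 regions without a footprint and 15053 footprinted regions of the 4 weakest deciles of signal, in replicates 1 and 2. Both groups peak at the centre, which the peak lists require, and regions without a footprint have a second, broad rise upstream, at 71.1% in replicate 1 at 400 bp, where footprinted regions are at 6.60%. The groups were not matched by position.

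Within the members' own bodies the evidence of cutting was weaker. The lowest FDR in a region had a median negative log10 of 6.22 in replicate 1 and 5.79 in replicate 2 in members, against 12.4 and 10.2 in footprinted regions. At starts the medians were 6.86 and 6.06 in members and 31.2 and 30.3 in footprinted regions, and at distal positions 4.76 and 4.46 against 9.27 and 7.42. For the 975 regions of the 4 weakest deciles centred 200 to 600 bp downstream, the gap was small. There the medians were 6.16 and 5.68 in 438 members and 6.22 and 5.52 in 537 footprinted regions, and the median share of bases under 0.001 was 98.1% and 93.6% in members, against 98.1% and 90.0% in footprinted regions.

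Members were wide and rich in G and C. Their median width was 263 bp, with quartiles of 207 and 359 bp, against 220 bp in footprinted regions, and 504 members (40.2%) were 300 bp or wider, against 14.3% of footprinted regions. Several peaks of 1 library were merged into the region in 6.23% of members and 1.74% of footprinted regions. Distal members were the exception, with a median width of 181 bp, against 200 bp in distal footprinted regions. The width difference depended on the peak lists. With the longer lists, members had a median of 216 bp and footprinted regions 220 bp, and with replicate 2 alone the medians were 128 and 200 bp, with replicate 1 alone 124 and 198 bp.

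The median GC content was 64.3% in members and 56.5% in footprinted regions. With the longer lists the medians were 55.4% and 54.6%, with replicate 2 alone 59.0% and 56.7%, and with replicate 1 alone 55.8% and 54.8%. The CpG ratio, the number of CpGs over that expected from the C and G content, had medians of 0.737 and 0.407. It exceeded 0.6 in 853 members (68.1%) and in 36.1% of footprinted regions. The median GC content was 65.8% in downstream members and 60.5% in downstream footprinted regions, 68.5% and 65.5% at starts, 59.1% and 57.7% upstream and 53.1% and 52.8% at distal positions. The contrast was therefore small among distal regions, as it was for the CpG ratio there (0.278 in members and 0.253 in footprinted regions). The excess of G over C on the gene's sense strand was taken as a share of G plus C. Its median was 0.054 in downstream members and 0.037 in downstream footprinted regions. Upstream it was -0.030 in members and 0.009 in footprinted regions. The quartiles of members had opposite signs at both positions, at -0.044 and 0.135 downstream and -0.099 and 0.083 upstream.

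CpG content and position were also crossed in the 4 weakest deciles. The share without a footprint was 1.52% where the CpG ratio was 0.2 or less (82 of 5389 regions), 6.39% between 0.4 and 0.6, and 27.7% above 0.8 (412 of 1486). In the window 200 to 600 bp downstream it was 12.9% (4 of 31), 31.9% (58 of 182) and 56.1% (211 of 376) in those classes. At distal positions it was 1.40%, 1.92% and 5.23% (9 of 172, interval 2.42 to 9.70%). At an equal CpG class, downstream regions were thus without a footprint far more often than distal ones.

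Short sequence motifs known to bind transcription factors were searched on both strands without mismatch. So that each region was searched over the same length, 150 bp at its centre were used. In regions narrower than 150 bp this window reached past the edges. The CTCF motif, which is long and specific, was present in 2 members (0.160%), 5.62% of footprinted regions and 5.45% of all shared regions. Weighted to the members' deciles of signal and positions, the value in footprinted regions was 2.50%. AP-1, the site of FOS and JUN dimers, was in 3.19% of members, 6.19% of footprinted regions and 6.10% of all. The NR5A site, bound by the steroidogenic regulators SF-1 and LRH-1, was in 2.71%, 5.99% and 5.89%. The short sequence AGATAA, which GATA factors bind, was in 3.27%, 6.79% and 6.68%, and CCAAT, the NF-Y site, in 11.4%, 20.5% and 20.2%. With the same weighting, footprinted regions held these 4 motifs in 4.79%, 5.04%, 5.94% and 14.0%, each above the members. Over whole regions, members minus footprinted regions gave -3.55 points for AP-1, -3.81 for NR5A, -4.24 for GATA and -8.88 for NF-Y. With the longer lists these were -1.48, -0.948, -0.445 and -6.56. They were -1.37, -1.25, -1.42 and -9.39 with replicate 1 alone, and -3.10, -2.87, -3.28 and -10.9 with replicate 2 alone. The weighting did not match GC content, of which members had the higher median at each position. Its part in the motif differences was not tested. Since members were chosen for lacking footprints, lower shares of motifs whose bound sites leave footprints may follow in part from the rule. The motif shares are therefore given as a description.

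GGGCGG, the GC box, went the other way, with 33.8% of members, 28.2% of footprinted regions, 26.8% after weighting and 28.4% of all shared regions. Over whole regions it was in 48.8% of members and 34.5% of footprinted regions, a direction that turned when either replicate was used alone. GCGTGGGCG, the site of EGR factors, which can overlap a GC box at its 3′ end, was in 7 members (0.559%) and 0.412% of footprinted regions. CCGGAAGT, an ETS site of promoters, was in 0.718% of members and 2.31% of footprinted regions, but in 0.646% of these after weighting. Of the 17 motifs, 14 were in a lower share of members than of footprinted regions in the central 150 bp, and 11 were after weighting.

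**Figure D5:**
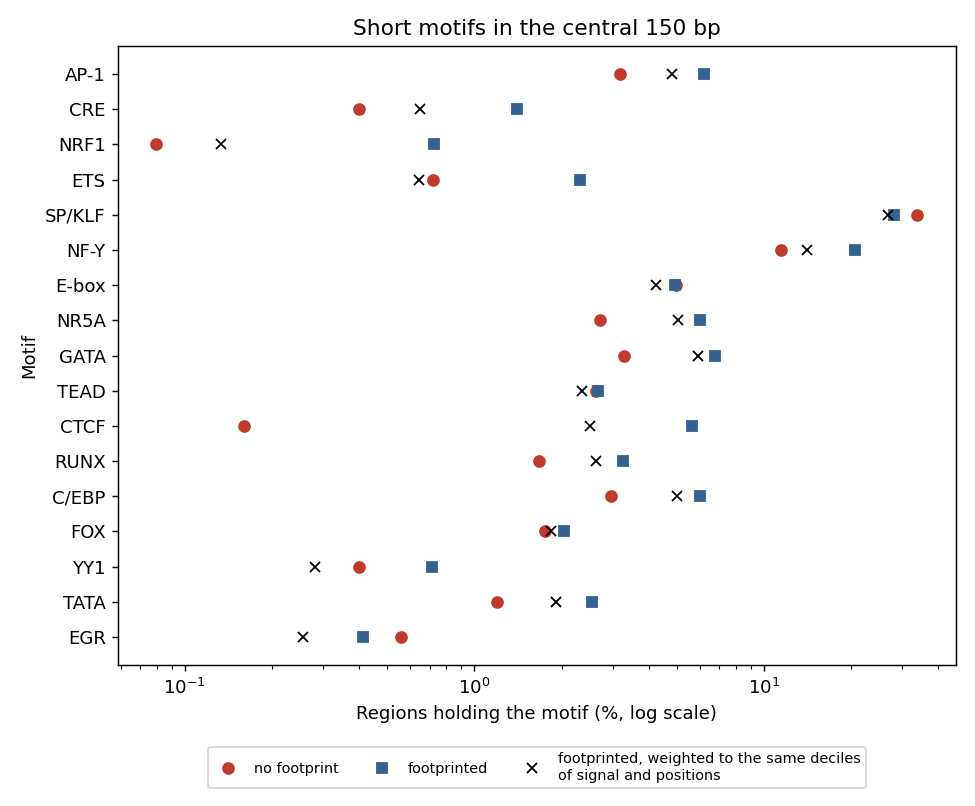
Share of regions (horizontal axis, percent, log scale) with each of 17 short motifs in the central 150 bp, for 1253 regions without a footprint, 39034 footprinted regions, and footprinted regions weighted to the same deciles of signal and positions. CTCF shows the widest gap, with 0.160% of regions without a footprint, 5.62% of footprinted regions and 2.50% after weighting, while SP/KLF lies higher in regions without a footprint. The weighting did not match GC content, and members were chosen for lacking footprints, so the shares are a description.

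The libraries could be set against each other, since a call in one can be read in the other. Of 3242 shared regions without a footprint in replicate 1, 38.6% had none in replicate 2 (exact binomial 95% interval 37.0 to 40.4%), against 2.36% of the 37045 regions with a footprint in replicate 1 (2.21 to 2.52%). Chosen by replicate 2, 58.9% of 2128 regions without a footprint had none in replicate 1, against 5.21% of 38159 regions with one. These shares pool all levels of signal. In the weakest decile the gap was narrower, with 37.0% against 11.1% when chosen by replicate 1 and 59.8% against 23.9% when chosen by replicate 2. The libraries therefore disagreed on most regions that lacked a footprint in replicate 1, and 875 regions had one in replicate 1 only and 1989 in replicate 2 only.

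Absences were also read by position. In the 4 weakest deciles, 549 regions centred 200 to 600 bp downstream had no footprint in replicate 1, and 79.8% of these had none in replicate 2 (interval 76.2 to 83.1%), against 20.9% of the 426 with a footprint in replicate 1. Of 1283 distal regions with none in replicate 1, 14.9% had none in replicate 2 (13.0 to 17.0%), against 4.03% of the 10247 with one. Read the other way, 83.1% of 527 downstream regions and 31.6% of 604 distal regions without a footprint in replicate 2 had none in replicate 1, against 24.8% and 9.99% of those with one. Absence was thus commoner downstream whatever the other library's call. The downstream window was chosen after the footprint calls of both libraries were seen, so these shares and intervals are a description only. Regions footprinted in replicate 1 only or replicate 2 only were at promoters in 36.8% and 30.6% of cases, against 71.7% of members. The ratio of signal between libraries varied less across members than across footprinted regions. For the log2 ratio of replicate 2 over replicate 1, the SD was 0.32 in 1253 members and 0.55 in footprinted regions. The median was 0.01 in either set. The correlation of signal between libraries was lower in members, with a Spearman coefficient of 0.824 against 0.862. The groups were not matched by signal here.

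The strongest members lay at or near starts of protein-coding genes, and all 10 were in decile 8. The first, 220 bp at the start of Egr2, an immediate-early zinc finger gene, had a signal of 3.63 in replicate 1 and 3.21 in replicate 2. Its footprinted neighbour, 80 bp away, had 4.39 and 3.65 with 3 footprints in each library. Its sequence contains a CArG box, the site of serum response factor, CCATATATGG at chr10:67537797-67537806, in which no footprint was called. This motif was looked for after the sequence was seen, and it was in 0.718% of members and 1.11% of footprinted regions.

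The next members were 764 bp upstream of Hspa8, the constitutive HSC70 chaperone (3.49 and 2.84), and 800 bp upstream of Mnt, a MAX-binding repressor (3.11 and 3.18). Both lay near a far stronger footprinted region, with 13.1 and 19.5 beside Hspa8 and 10.5 and 20.3 beside Mnt. The member 387 bp upstream of Calm3, which encodes calmodulin, had 3.01 and 3.25. The member at Lipt2, a lipoyl transferase, had 3.003 and 3.21, and that 8 bp downstream of a start of Dnajb1, an HSP40 co-chaperone, 3.01 and 2.78. Among the 10 strongest were also Cap1, an actin-binding protein (2.58 and 3.22), Ttc39b (3.08 and 2.50), the splicing factor gene Luc7l2 (2.52 and 3.11) and Eef1d, a translation elongation factor whose region also lies at a start of Tigd5 (2.67 and 2.82). In all 10 the nearest shared region was footprinted and stronger in both libraries. Pnpla8, a phospholipase gene, and Herpud2 completed the 10 strongest promoter members, with 2.38 and 3.20 at Pnpla8 and 2.36 and 3.14 at Herpud2.

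The 5 strongest distal members were intergenic and had signals between 1.87 and 2.22 in replicate 1 and between 1.84 and 2.02 in replicate 2. Each lay within 200 bp of a stronger footprinted region. Their nearest protein-coding starts were those of Zfp292 at 3941 bp, Wdr5 at 12029 bp, Foxk1 at 33557 bp, H3f3a at 35094 bp and Scd4 at 17932 bp. The one near Wdr5 was 426 bp from a start of the lncRNA Gm13421. A lncRNA start lay within 500 bp of 17 of 211 distal members (8.06%) and 756 distal footprinted regions (3.54%). The Zfp292-side and Foxk1-side members had a GC content of 71.8% and 70.4%, and those near Wdr5 and Scd4 44.5% and 46.4%.

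The widest members also lay at promoters. They were 1100 bp at Ints6, an Integrator subunit gene, 1037 bp at Rybp, a Polycomb component, 960 bp at Smc4, a condensin subunit, 920 bp at Ubn2, a histone chaperone subunit, and 891 bp at Ell2, an elongation factor. Ints6 had a signal of 1.43 in replicate 1 and 1.40 in replicate 2, and the other 4 lay between 0.710 and 0.893 in replicate 1 and between 0.844 and 0.922 in replicate 2. The footprinted region next to each had 4.44 to 10.6 in replicate 1 and 5.19 to 20.4 in replicate 2. The centre of the Rybp member was upstream of its nearest start, and those of the other 4 were downstream.

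At the level of genes, 952 of 20807 autosomal protein-coding genes (4.58%) had a member within 500 bp of a start. Of these, 936 (98.3%) also had a footprinted region there, and 16 had a member only. Of all 12198 genes with a shared promoter region, 12182 had a footprinted one, so the high share is not particular to genes with a member. The 16 are by definition the genes with a shared promoter region but no footprinted one. Those 16 were singled out after their values were seen. They include Tmem38a, a cation channel gene of the endoplasmic reticulum, with 3 members of 1.83, 0.818 and 0.743 in replicate 1 and 1.84, 0.586 and 0.782 in replicate 2, and Arid2, a subunit of the PBAF chromatin remodeller, with 1.52 and 1.16 in replicates 1 and 2. Tnfrsf11b, which encodes osteoprotegerin, had 0.581 and 0.586, and Hdac9, a histone deacetylase gene, 0.409 and 0.508. Pagr1b may share reads with a near-identical copy and is uncertain. In all, 33 genes had more than 1 member.

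Few marker genes of cell types had a member. Over 16 lists with 128 autosomal genes, 60 genes had a shared promoter region, all of them a footprinted one, and 2 had a member. Over all genes with a shared promoter region the share with a member was 7.80%, so the count is too small to read against the background. The 2 were Foxj1, the regulator of motile cilia listed for the oviduct, with 1.05 and 0.836 in replicates 1 and 2, and the housekeeping gene Gapdh, with 1.02 and 1.46. None of the 12 granulosa, 12 theca and steroidogenic or 13 autosomal oocyte genes had one.

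Just inside the rule, 38 members had a footprint within 20 bp of their edge and 76 within 50 bp. Just outside it, 1054 regions had exactly 1 footprint in 1 library. Their signal had medians of 0.807 and 0.821 in replicates 1 and 2, where members had 0.850 and 0.852. Their median width was 200 bp, their median GC content 55.1%, and 34.5% were at promoters and 12.8% in the window 200 to 600 bp downstream. The 5 strongest of them, at Cand1, Fgfr1, Serpini1, Letm2 and Kif3b, had signals between 3.46 and 4.03 in replicate 1 and between 3.36 and 4.98 in replicate 2, and the 1 footprint was called in replicate 2 in all 5. At the other end of the scale, the weakest members were near Acap3, with 0.194 and 0.258 in replicates 1 and 2, and 5427 bp upstream of Gm7929, a region of which 93.8% is masked as repeat.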

How the data were processed

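DNase-seq peaks, footprints and cut-rate tables of 2 libraries were used as deposited, on mouse build mm10 per the deposited text files. Peak strength is a signal scaled for depth by the authors; its values were whole multiples (100% within 0.05 of a step) of 0.0108 in replicate 1 and 0.00782 in replicate 2, and total depth is not stated. Each deposited footprint carries a constant 0.01, and whether this is a p-value or a false discovery rate (FDR) is not stated; deposited FDR values of the cut rate stop at 0.05. The libraries' shorter lists held 60823 and 50503 peaks, and 181762 and 200993 footprints were deposited. For the aligner, the callers and the mapping of CAST alleles, nothing is given in the sources used here.

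Peaks overlapping by 1 bp were merged across libraries; coordinates are 1-based. Starts came from GENCODE M21, sequence from GRCm38.p6, whose chromosome lengths fit the files. Tools were pandas 2.3.3 and NumPy 2.4.6 under Python 3.11.15, with SciPy 1.17.1 for intervals and Matplotlib 3.10.9 for figures. Merging and footprint overlap were checked on simulated data, and the motif search was not. No test was run: 1 group, and members chosen by the readout. Exact binomial intervals are at 95% and cover counting error only.

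The members and lists were chosen with earlier results of these data known. Genes named are those at the 10 strongest members, 10 strongest promoter members, 5 strongest distal and 5 widest members, members of marker lists, and the 5 strongest regions with 1 footprint; others were chosen after their values were seen. Alternatives were the longer lists, reciprocal overlap of 50%, other footprint margins, single libraries, a central 150 bp window, weighting by signal or width, and promoters of 2000 bp.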

Additional observations from a re-analysis of the deposited data

How the results depend on the processing

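Of 79 alternative values for 11 results, 41 differed from the main value by no more than the SD of the 2 single-library values (for counts, within 1.5 times). Staying within this SD does not mean lying near the single-library values themselves. Without replicate 1 or 2 the number of regions without a footprint was 4709 to 8293 and their share 9.63 to 14.1%, since 1 library then decides both calls. The differences between members and footprinted regions were then 11.1 to 6.07 percentage points at promoters, 19.2 to 13.9 in the downstream window, 36.2 to 26.7 for a neighbour within 500 bp, 2.32 to 1.00 in GC content, and -72 to -74 bp in width, which reversed. The signal ratio was 0.511 to 0.462, the share in the weakest decile 35.4 to 50.99%, and the masked share reversed to 1.45 to 0.858 percentage points. The longer lists gave 3373 members, a signal ratio of 0.475, a reversed width difference of -4 bp, 0.833 points of GC content, 8.59 at promoters, a reversed 0.652 for masked regions, 23.7% in the weakest decile, 15.0 downstream and 23.0 for neighbours. Width also moved to 40 bp under reciprocal overlap and with only footprints wholly inside, and to 51 bp with footprints within 20 bp counted.

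Weighting by signal gave 11.4 points of GC content, 53.8 at promoters, -1.26 for masked regions and 71.9 for neighbours, and weighting by width 6.21 and 27.3 for the first 2. Promoters of 2000 bp gave 37.9. Every difference at promoters, downstream and for neighbours stayed positive. For 7 single motifs, 23 of 63 alternatives changed by more than the SD of the single-library values without reversing, and 3 reversed. The reversals were SP/KLF to -5.25 without replicate 1 and -6.39 without replicate 2, and ETS to 0.325 when weighted by signal. The causes were not tested. The downstream and neighbour results were chosen after seeing the data. Total depth is unknown, so how far it limits footprint calls at weak sites was not tested. No paired analysis was possible because there is 1 group.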

Other observations

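Chromosome X was outside the rule. It held 1028 shared regions, of which 51 (4.96%) had no footprint in either library, against 3.11% of autosomal shared regions.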
